A study of Rattus norvegicus with 15 samples.

Results

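The genes followed here set whether a cell enters apoptosis. They are Bcl2, Bcl2l1, Bcl2a1, Mcl1, Bax, Bak1, Bid, Bcl2l11 and Bbc3 of the BCL2 family, together with Birc3, an inhibitor of apoptosis gene. The probe sets were taken by name, as every probe set whose only gene symbol is one of these 10, without regard to their values. The 10 genes themselves were chosen with earlier results of these data known. 9 of the 10 genes were found in this way, on 15 of the 31042 probe sets tested, among 14217 genes with a symbol of their own. Bax was present only on a probe set that carries 2 gene symbols and was not analysed here.

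The acute group (aTX) consisted of 5 allogeneic grafts, kidneys of Lewis-Brown-Norway (LBN) rats placed into Lewis (LEW) rats. The syngeneic group (sTX) consisted of 5 LBN kidneys placed into LBN rats, and the control group (ctr) of 5 native, untreated LBN kidneys. All rats were male and 10 to 12 weeks old, every recipient lost both of its own kidneys at the operation, no immunosuppression was given, and grafts were removed on day 4. These strains follow the study's methods and series text, whereas the sample names give Lewis donors for both grafts and LBN recipients for aTX. Were the sample names right, grafts and ctr would also differ in strain, and the effect of strain was not tested. The treatment entry of 2 sTX arrays, numbers 4 and 5, reads allogeneic against their titles, so results were repeated without them. According to the series text the ctr kidneys were the second kidneys of graft donors, so a ctr kidney and a graft may share a donor. Each kidney had its own Affymetrix Rat Genome 230 2.0 array, whose MAS5 signal is a linear brightness per probe set.

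Proteins of the BCL2 family share BCL2 homology (BH) domains and meet at the outer mitochondrial membrane. BCL2, BCL-XL (encoded by Bcl2l1), BCL2A1 and MCL1 hold death back, BAX and BAK form the pores that release cytochrome c, and the BH3-only proteins BID, BIM (Bcl2l11) and PUMA (Bbc3) start the process by binding one or both of these classes. Birc3 encodes cIAP2, a ubiquitin ligase that works in TNF receptor complexes upstream of NF-kappaB. In a rejected kidney these genes can be expressed by tubular and vascular cells of the graft and by the leukocytes that enter it, and in whole tissue fewer cells of a type and less RNA per cell cannot be told apart.

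Several facts of the arrays touch what follows. By the clock times in their instrument records the arrays fell into 2 blocks, taken here as wash and stain runs. This grouping was inferred from the times of day alone, without the dates, so a block may join arrays of different days. The first run held all 5 ctr arrays and aTX 2, 3 and 4. The other held all 5 sTX arrays and aTX 1 and 5, so no sTX array shares a run with a ctr array. The ratio of 3' to 5' Gapdh signal, which rises as RNA degrades, lay between 1.006 and 1.07 in aTX, between 1.066 and 1.128 in sTX and between 1.126 and 1.246 in ctr. The same ratio for beta-actin lay between 1.14 and 1.29 in aTX, apart from 1.447 to 1.609 in sTX and 1.539 to 1.976 in ctr. The summed signal of 8 leukocyte markers lay between 5782.6 and 7248.7 in aTX, between 924.4 and 1360.9 in sTX and between 595.1 and 722.6 in ctr, and 7 of the 8 were called higher in each of the 3 comparisons. The 10 proximal tubule markers summed to between 10055.4 and 14426.7 in aTX, 20607.7 and 24232.7 in sTX, and 22934.6 and 31264.8 in ctr, and all 10 were called lower in aTX than in ctr. Lrp2, the endocytic receptor megalin of the proximal tubule, averaged 702 ± 74.6 in aTX, 2218.3 ± 142 in sTX and 2607 ± 363 in ctr, and Umod, of the thick ascending limb, averaged 2631.2 ± 560 in aTX, 4441.3 ± 622 in sTX and 4934.1 ± 545 in ctr. Kidney markers were therefore present in every group, and no listed marker had a signal of 0. sTX 1 and ctr 3 had the highest leukocyte sum of their groups, 1360.9 and 722.6. The part of these differences in the results below was not tested.

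Most of the genes followed here, Birc3 among them, were higher in the acute group. This does not extend to the 14 other BCL2 family and BNIP genes given further below, of which 4 were called higher and 4 lower in aTX against ctr. In aTX against ctr, 9 of the 15 probe sets, from 7 of the 9 genes, were called higher, beside 20.2% of all probe sets on the array. 1 probe set, of Bcl2l1, was called lower, beside 22.2% of all probe sets. The change is given on the log2 scale from limma with its standard error (SE), and a probe set was called at an adjusted p below 0.05 over all 31042 probe sets. Against ctr, sTX had 4 probe sets called higher and 2, both of Mcl1, called lower, beside 11.4% and 6.32% of the array. In aTX against sTX, 9 were called higher and 2, both of Bcl2l1, lower, beside 13.9% and 22.1% of the array. The median change of the 15 probe sets was 0.72 in aTX against ctr, 0.04 in sTX against ctr and 0.71 in aTX against sTX, whereas the median of all probe sets was -0.07, 0.09 and -0.18. Scaling moved the balance of calls: with each array centred on its median, those medians became -0.11 for sTX against ctr and -0.06 for aTX against sTX. The whole-array calls in sTX against ctr were then 1812 higher and 4724 lower, instead of 3539 and 1961, and the members 4 higher and 4 lower. In aTX against ctr the whole-array calls were 5547 higher and 7661 lower, instead of 6268 and 6890, and the members 8 higher and 1 lower. For aTX against sTX they were 5427 higher and 5242 lower, instead of 4327 and 6857, and the members 9 higher and 1 lower. Both graft groups were set against the same ctr kidneys, so these comparisons are not independent of each other. All 5 kidneys of the groups lay apart for 9 member probe sets in aTX against ctr, 2 in sTX against ctr and 9 in aTX against sTX. Both counts of 9 include a Bcl2l1 probe set that lay lower in aTX. How many probe sets of the whole array lay apart in this way was not counted, so these counts cannot be set beside an array share.

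**Figure D1:**
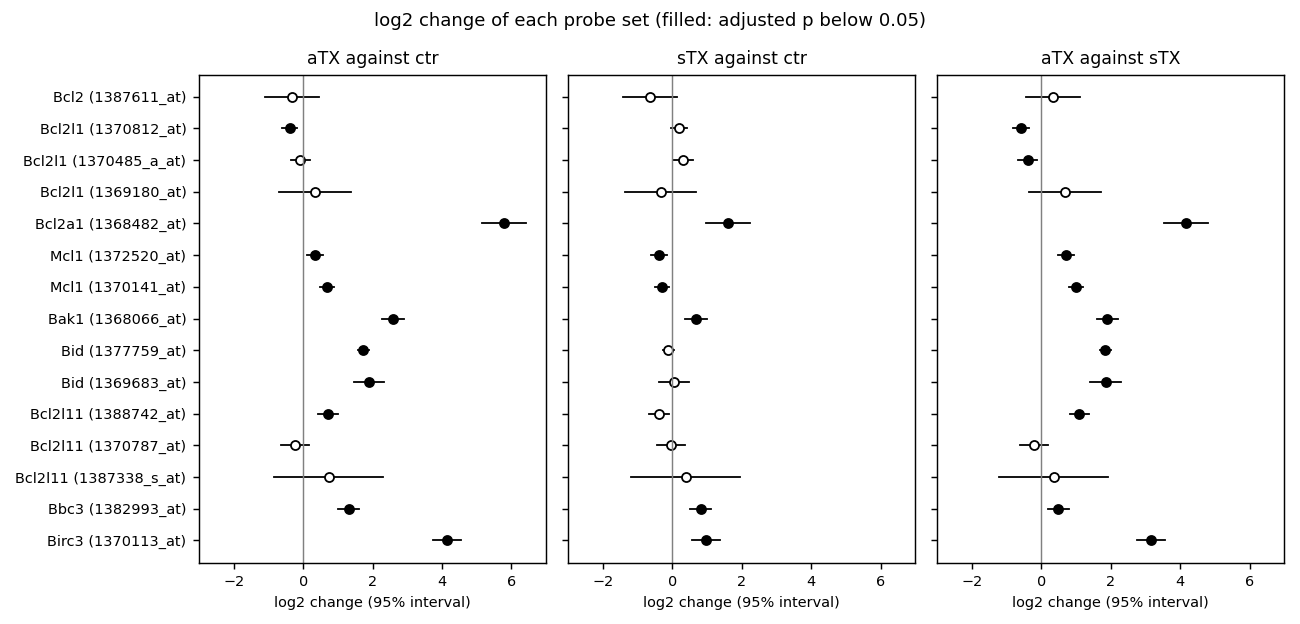
log2 change of the 15 probe sets (rows) in aTX against ctr, sTX against ctr and aTX against sTX, with 95% intervals from limma; filled points have an adjusted p below 0.05. Bcl2a1 and Birc3 lie farthest to the right in both comparisons of aTX, at 5.79 and 4.14 against ctr and 4.17 and 3.16 against sTX, while Bcl2l1 (1370812_at) lies left of 0 in both.

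Bcl2a1, a short-lived pro-survival protein best known from blood cells and from its induction by NF-kappaB, had the largest rise of the members. Its probe set (1368482_at) gave signals of 1065.8, 1106.8, 1076.1, 1196.4 and 1104.2 in aTX kidneys 1 to 5, of 119.7, 68.3, 47.2, 54.9 and 42.0 in sTX kidneys 1 to 5, and of 11.5, 15.7, 45.7, 13.7 and 28.8 in ctr kidneys 1 to 5. The aTX kidneys lay far above all others, whereas sTX and ctr overlapped through ctr 3, the highest control. The rise in aTX against ctr was 5.79 (SE 0.30, adjusted p = 4.61e-12), a 55.3-fold difference of geometric means and the 33rd largest rise of the array. Its size depends on low control signals, and with 16 added to every signal the fold was 30.2. In aTX against sTX the rise was 4.17 (SE 0.30, adjusted p = 1.26e-09), or 18.0-fold. The syngeneic grafts were 3.07-fold above ctr (log2 change 1.62, SE 0.30, adjusted p = 0.000727). Fitted with a term for the wash run, that change was 1.67 with an adjusted p of 0.116.

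Genes that move together can be read beside their promoters, so those of Bcl2a1 and Bak1, chosen after their values were seen as the genes with a promoter sequence here that rose most in aTX against ctr, are shown from RefSeq, build GRCr8. Each run is the 250 bases before the annotated start of the gene, 5′ to 3′ on the strand of the gene. Capitals mark GGGNNNNNCC, a loose kappaB-type motif, and GAGGAA, the core of PU.1-type sites, each searched on both strands.
Bcl2a1, chr8:98596556-98596805, plus strand: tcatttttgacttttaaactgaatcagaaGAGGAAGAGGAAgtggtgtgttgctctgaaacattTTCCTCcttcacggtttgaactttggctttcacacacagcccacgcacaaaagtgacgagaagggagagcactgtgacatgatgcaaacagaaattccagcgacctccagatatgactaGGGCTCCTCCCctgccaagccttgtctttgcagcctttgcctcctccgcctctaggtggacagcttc
Bak1, chr20:5110975-5111224, minus strand: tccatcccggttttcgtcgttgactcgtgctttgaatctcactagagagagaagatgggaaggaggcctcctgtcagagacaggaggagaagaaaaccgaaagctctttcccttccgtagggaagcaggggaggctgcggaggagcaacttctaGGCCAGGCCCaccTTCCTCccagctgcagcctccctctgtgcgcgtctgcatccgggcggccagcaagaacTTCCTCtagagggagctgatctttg
The Bcl2a1 window held 3 GAGGAA matches, 221, 215 and 186 bases before the start, the first of them directly followed by the next, and 2 overlapping kappaB-type matches 67 and 66 bases before it. The Bak1 window held 2 GAGGAA matches, 83 and 25 bases before the start, and 1 kappaB-type match 96 bases before it. Of 33469 RefSeq promoters of 300 bases, which run 50 bases past the start, 27.6% held a GAGGAA match, 4.83% held 2 or more and 0.696% held 3 or more. A kappaB-type match stood in 47.3% of them, and 25.4% held 2 or more. Promoters were matched for 7 of the 10 genes, in 10 windows, and Bax, Bbc3 and Birc3 are named only. Of these 10 windows 8 held a GAGGAA match, among them that of Bcl2, which was not called, and 6 held a kappaB-type match. Bcl2l1 alone had several of the windows, from alternative starts, some of them overlapping. The 8 and the 6 are therefore not counts of genes and cannot be set beside the shares of all promoters. A match describes the letters and is not a site.

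Mcl1, a labile pro-survival protein that binds BAK and BIM, rose in the acute group and was lower in syngeneic grafts. Probe set 1370141_at gave 556.5, 542.8, 565.7, 563.4 and 606.9 in aTX kidneys 1 to 5, 315.2, 340.4, 285.6, 263.3 and 229.9 in sTX, and 397.7, 319.9, 293.3, 364.5 and 382.6 in ctr. All aTX kidneys lay above all others, and sTX overlapped ctr. The rise was 0.70 in aTX against ctr (SE 0.10, adjusted p = 5.23e-06), or 1.62-fold, and it was 1.99-fold in aTX against sTX (adjusted p = 8.49e-08). The other probe set, 1372520_at, averaged 1024.5 ± 105 in aTX, 630 ± 91.5 in sTX and 819 ± 124 in ctr (SD, n = 5 each), and its aTX kidneys overlapped those of ctr. It rose by 0.33 in aTX against ctr (SE 0.11, adjusted p = 0.0214), and the call was lost without aTX 2, aTX 4 or ctr 3 (adjusted p = 0.0521, 0.0543 and 0.0691). It was also lost with each array centred on its median (0.26, adjusted p = 0.0942), in limma without an intensity trend (adjusted p = 0.0592) and without sTX 1 and ctr 3 (adjusted p = 0.0605). In aTX against sTX it rose by 0.71 (SE 0.11, adjusted p = 3.4e-05). Syngeneic grafts were lower than ctr, as Mcl1 fell by 0.30 on 1370141_at (SE 0.10, adjusted p = 0.0401) and by 0.38 on 1372520_at (SE 0.11, adjusted p = 0.0226). These calls did not hold with a wash run term (adjusted p = 0.336 and 0.825) or without sTX 4 and 5 (adjusted p = 0.314 and 0.22), nor after quantile normalization (adjusted p = 0.0677 and 0.0732). The call on 1370141_at was also lost when sTX 3, 4 or 5 or ctr 1, 4 or 5 was left out, and that on 1372520_at when sTX 4 or 5 or ctr 2 or 4 was.

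Bcl2l1 was the only member gene with a probe set that was called lower in the acute group. Its protein, BCL-XL, is the main pro-survival family member of many epithelia. Probe set 1370812_at gave 206.4, 211.9, 198.3, 264.1 and 250 in aTX kidneys 1 to 5, 367.1, 276.0, 391.8, 318.4 and 346.1 in sTX, and 272.6, 267.6, 357.9, 309.1 and 277.7 in ctr. The highest aTX kidney lay just under the lowest ctr and sTX kidneys, so the acute group did not overlap either, while sTX and ctr overlapped. It fell by 0.39 in aTX against ctr (SE 0.11, adjusted p = 0.00428), which is 1.31-fold, and by 0.59 in aTX against sTX (SE 0.11, adjusted p = 0.000137), which is 1.5-fold. Probe set 1370485_a_at averaged 119 ± 14.4 in aTX, 157 ± 22.3 in sTX and 128 ± 25.9 in ctr. Its change was -0.08 in aTX against ctr (adjusted p = 0.665), and it fell by 0.40 in aTX against sTX (SE 0.13, adjusted p = 0.0245), a call that was lost when aTX 1, sTX 1, sTX 2 or sTX 5 was left out (adjusted p between 0.0536 and 0.0709) or each array was centred on its median (adjusted p = 0.103). The third, 1369180_at, lay between 1.3 and 13.4 in all 15 kidneys, under the array medians of 24.3 to 30, and was not called in any comparison. The probe sets of Bcl2l1 therefore did not give 1 answer for aTX against ctr.

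Bcl2, the founding pro-survival member, had low signals in all groups and was not called in any comparison. The single probe set (1387611_at) lay between 7.4 and 18.5 in aTX, between 3.8 and 15.7 in sTX and between 9.1 and 17.5 in ctr, all under the median signal of every array. Its change was -0.32 in aTX against ctr with a 95% interval of -1.10 to 0.45, -0.65 in sTX against ctr with an interval of -1.43 to 0.13, and 0.33 in aTX against sTX with an interval of -0.45 to 1.10. Each interval reaches past a 2-fold difference in 1 direction.

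**Figure D2:**
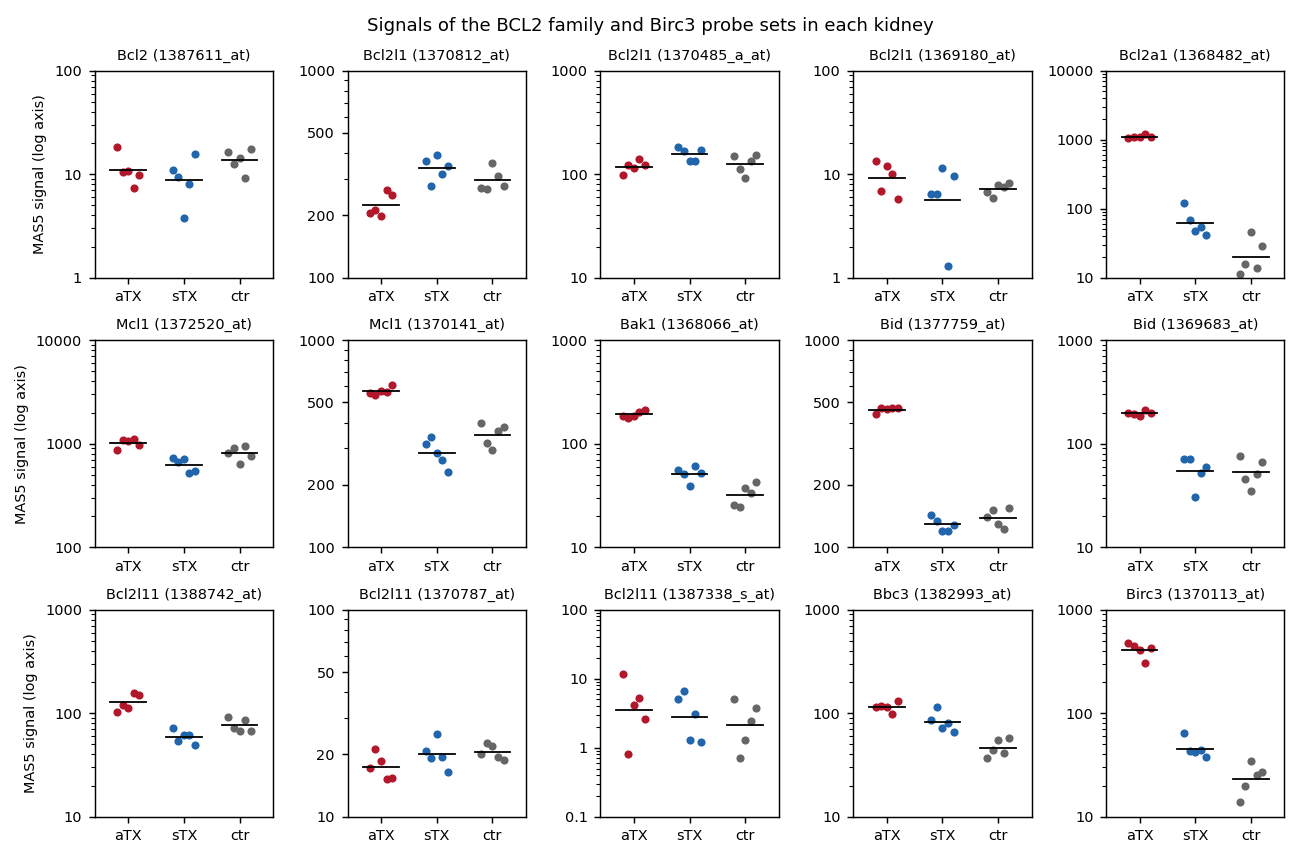
MAS5 signal of each member probe set in the 5 aTX, 5 sTX and 5 ctr kidneys (log axis, 1 point per kidney, lines are geometric means). The aTX points stand apart from both other groups for Bcl2a1, Mcl1 (1370141_at), Bak1, both Bid probe sets, Bcl2l11 (1388742_at) and Birc3 above, and for Bcl2l1 (1370812_at) below.

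Among the pore formers, Bak1 could be read alone. Bak1 (1368066_at) gave 186.0, 175.4, 183.7, 204.0 and 211.7 in aTX kidneys 1 to 5, 55.3, 50.8, 39.3, 61.5 and 52.6 in sTX, and 25.8, 24.2, 37.2, 33.7 and 42.7 in ctr. The lowest aTX kidney (175.4) lay far above the highest of the others (61.5), and sTX overlapped ctr through sTX 3 and ctr 5. The rise was 2.58 in aTX against ctr (SE 0.15, adjusted p = 1.66e-11), or 6.0-fold, and 1.90 in aTX against sTX (SE 0.15, adjusted p = 3.5e-09), or 3.73-fold. Bak1 rose by 0.68 in sTX against ctr (SE 0.15, adjusted p = 0.0026), and a wash run term made that change 0.60 with an adjusted p of 0.276.

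The 3 BH3-only genes rose in the acute group to different extents. Bid links death receptors to mitochondria, since its protein is cut by caspase-8. Its probe set 1377759_at gave 441.1, 468.2, 462.6, 468.9 and 469.1 in aTX kidneys 1 to 5, 142.7, 133.7, 119.6, 119.7 and 128.4 in sTX, and 140.7, 150.7, 129.7, 122.5 and 155.3 in ctr. The lowest aTX kidney (441.1) lay far above the highest of the others (155.3), and sTX and ctr covered much the same range. The rise was 1.73 in aTX against ctr (SE 0.08, adjusted p = 3.54e-13) and 1.85 in aTX against sTX (SE 0.08, adjusted p = 6.42e-13). The other probe set, 1369683_at, lay between 185.8 and 210.2 in aTX, between 30.4 and 71.4 in sTX and between 34.7 and 76.8 in ctr, with rises of 1.89 (adjusted p = 2.34e-07) and 1.85 (adjusted p = 5.63e-07). Both probe sets thus gave 3.32- to 3.71-fold higher levels in aTX. Between sTX and ctr the changes were -0.12 on 1377759_at (95% interval -0.27 to 0.04) and 0.04 on 1369683_at (95% interval -0.40 to 0.48), and neither was called. With each array centred on its median, 1377759_at was called lower in sTX than in ctr (-0.31, adjusted p = 0.00501).

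Bcl2l11 encodes BIM, which binds all pro-survival members. On 1388742_at it gave 103.2, 118.9, 111.4, 158.0 and 151.1 in aTX kidneys 1 to 5, 72.6, 53.8, 61.3, 61.8 and 49.3 in sTX, and 92.9, 72.1, 67.5, 86.4 and 67.8 in ctr. The lowest aTX kidney lay above the highest ctr and sTX kidneys, and most sTX kidneys lay under all ctr kidneys. The rise was 0.72 in aTX against ctr (SE 0.14, adjusted p = 0.000177) and 1.10 in aTX against sTX (SE 0.14, adjusted p = 1.97e-06). For sTX against ctr the change was -0.37 (SE 0.14, adjusted p = 0.0677), and with each array centred on its median it was -0.57 (adjusted p = 0.0047). Quantile normalization made it -0.50 (adjusted p = 0.0167). The other probe sets, 1370787_at between 15.2 and 25.1 and 1387338_s_at between 0.7 and 11.9 over all kidneys, were near or under the array medians and were not called in any comparison.

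Bbc3 encodes PUMA, a BH3-only protein known as a target of p53. Its probe set (1382993_at) gave 113.8, 117.4, 116.1, 99.0 and 131.1 in aTX kidneys 1 to 5, 86.4, 114.0, 72.3, 79.7 and 66.6 in sTX, and 37.3, 44.0, 55.0, 41.5 and 58.2 in ctr. Both graft groups lay wholly above ctr, and they overlapped each other through sTX 2. The rise was 1.31 in aTX against ctr (SE 0.14, adjusted p = 2.29e-07), or 2.47-fold, and 0.82 in sTX against ctr (SE 0.14, adjusted p = 0.000385), or 1.77-fold. With a wash run term the sTX change was 0.68 with an adjusted p of 0.188. Bbc3 rose by 0.48 in aTX against sTX (SE 0.14, adjusted p = 0.0118), and without sTX 4 and 5 the change was 0.37 (adjusted p = 0.107). Bbc3 had the smallest rise of the called genes in aTX against sTX.

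Birc3 had the largest rise after Bcl2a1. Its probe set (1370113_at) gave 474.8, 441.2, 409.3, 309.0 and 426.8 in aTX kidneys 1 to 5, 64.2, 43.3, 42.0, 44.5 and 37.6 in sTX, and 14.0, 20, 34.4, 25.2 and 27 in ctr. The 3 groups did not overlap at any point, with aTX highest and ctr lowest. aTX 4 was the lowest acute graft, and sTX 1 and ctr 3 were the highest kidneys of their groups. The rise was 4.14 in aTX against ctr (SE 0.19, adjusted p = 9.92e-13), or 17.7-fold and the 182nd largest rise of the array. With 16 added to every signal the fold was 10.7. In aTX against sTX the rise was 3.16 (SE 0.19, adjusted p = 1.07e-10), or 8.96-fold. Birc3 was 1.97-fold higher in sTX than in ctr (log2 change 0.98, SE 0.19, adjusted p = 0.00117), and with a wash run term the change was 0.74 with an adjusted p of 0.302.

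The wash run term touched the syngeneic grafts most, for which it rests on the aTX arrays alone, since only aTX spans both runs. With it, limma called 0 member probe sets in sTX against ctr in either direction, and 713 higher and 255 lower over the whole array. In aTX against ctr 9 members were called higher, as without the term, beside 5601 probe sets of the whole array instead of 6268. In aTX against sTX 9 members were called higher, as without the term, beside 3552 instead of 4327. Within the first run alone, with 3 aTX and 5 ctr arrays, Bcl2a1 was 56.1-fold and Birc3 16.6-fold higher in aTX (adjusted p = 2.72e-08 and 2.26e-08 from limma). Within the other run, with 2 aTX and 5 sTX arrays, Bcl2a1 was 17.6-fold and Birc3 9.89-fold higher in aTX (adjusted p = 3.68e-06 and 7.29e-07). For Bcl2a1 and Birc3 the rises among arrays of 1 run were thus close in size to those over both runs. Mcl1 on 1372520_at moved more, to 0.43 against ctr and 0.56 against sTX within a run, from 0.33 and 0.71. The fits within a run gave the same changes as the wash run term and are not a separate check. By the two-sample test of the study's methods, at their unadjusted threshold of 0.001, 0 member probe sets were called in sTX against ctr, and 2 were called higher after Benjamini-Hochberg adjustment of that test.

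Leukocyte markers moved with Bcl2a1 and Birc3 between groups and, in part, among kidneys of 1 group. sTX 1 had the highest Bcl2a1 (119.7), Birc3 (64.2) and leukocyte sum (1360.9) of the syngeneic group, and ctr 3 had the highest Bcl2a1 (45.7), Birc3 (34.4) and leukocyte sum (722.6) of the controls. In the acute group the 2 genes parted, since aTX 4 had the highest leukocyte sum (7248.7) and the highest Bcl2a1 (1196.4) but the lowest Birc3 (309.0). aTX 1 had the lowest leukocyte sum (5782.6), the lowest Bcl2a1 (1065.8) and the highest Birc3 (474.8). Among the remaining kidneys, without sTX 1 and ctr 3, the rises in aTX against ctr were 6.09 for Bcl2a1 and 4.29 for Birc3. In sTX against ctr Birc3 was then 2.0-fold higher (adjusted p = 0.000539 from limma) and Bcl2a1 rose by 1.68 (adjusted p = 1.59e-05). These kidneys were left out after their values were seen. Leaving out the highest control must raise the change in aTX against ctr, and leaving out extreme kidneys narrows the spread, so these values are a description only. T cell markers (9 genes) summed to between 1976.5 and 3091 in aTX, 235.4 and 379.6 in sTX and 139.7 and 225.6 in ctr, and macrophage markers (10 genes) to between 12348.6 and 16086.8 in aTX, 3748.7 and 5549.1 in sTX and 2191.6 and 2788 in ctr. The neutrophil list (5 genes) summed to between 270.5 and 586.4 in aTX, 34.3 and 141 in sTX and 20 and 34.1 in ctr. Of the list markers, 9 of 9 T cell, 10 of 10 macrophage and 5 of 5 neutrophil genes were called higher in aTX than in ctr, and 0 of 4 B cell genes were. Defining markers were far above ctr in aTX, with Ptprc (CD45) at 630 ± 44.3 in aTX, 67.9 ± 12.6 in sTX and 43 ± 5.5 in ctr and Cd68 of macrophages at 897 ± 41.4 in aTX, 151 ± 35 in sTX and 60.1 ± 12.6 in ctr. Among the acute grafts, a comparison chosen after the values were seen, aTX 1 had the highest neutrophil sum (586.4) and aTX 4 the lowest (270.5), as for Birc3. The other groups matched only in part. In sTX the highest neutrophil sum was in sTX 3 (141) but the highest Birc3 in sTX 1, and sTX 5 was lowest for both. In ctr, ctr 3 was highest for both, but the lowest sum was in ctr 2 (20) and the lowest Birc3 in ctr 1 (14.0). Endothelial markers fell in aTX against ctr (7 of 7), as did 8 of 10 distal tubule and 4 of 5 podocyte markers. The remaining podocyte marker was called higher. The part of these cells in the members' changes was not tested.

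**Figure D3:**
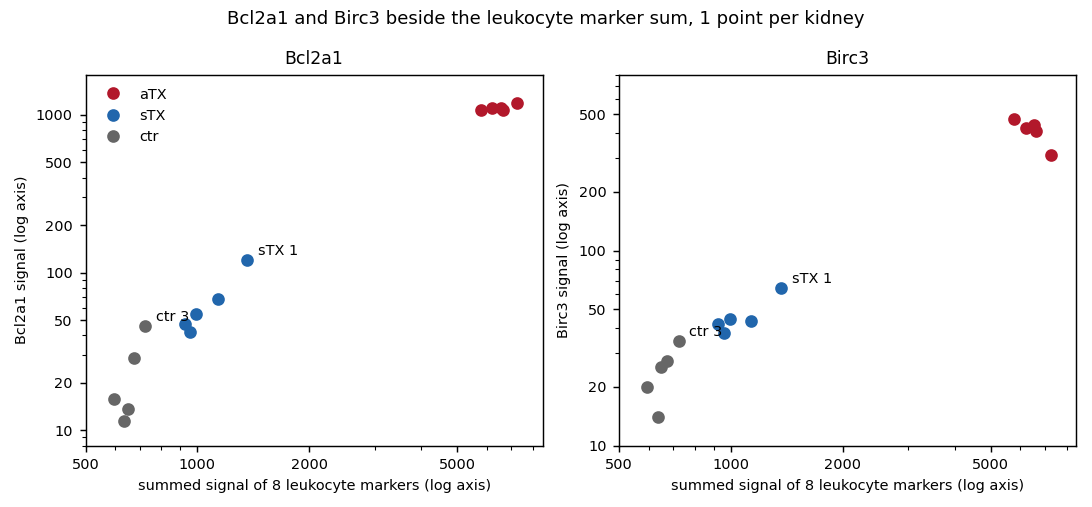
Signal of Bcl2a1 (left) and Birc3 (right) against the summed signal of 8 leukocyte markers, both on log axes, 1 point per kidney, for aTX, sTX and ctr. sTX 1 and ctr 3 are the highest of their groups on all 3 measures, and within aTX the kidney with the highest marker sum (7248.7) has the lowest Birc3 signal (309.0).

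Once group means were removed, the members varied together only in part. Over the 105 pairs of probe sets Pearson's r of log2 signals over 15 kidneys had a median of 0.08 and ran between -0.56 and 0.80, as a description without a test. The pairs of Bcl2a1, Birc3, Bbc3 and Bak1, chosen after their values were seen, had r between 0.48 and 0.79. Their highest pair, Bcl2a1 with Birc3, had r = 0.79 (Spearman's rho 0.63), and r = 0.54 over the 13 kidneys without sTX 1 and ctr 3. Bcl2a1 with Bbc3 had r = 0.68 (rho 0.81), and r = 0.81 without that pair of kidneys. The highest pair of all was Bid (1369683_at) with Bcl2l1 (1370485_a_at), at r = 0.80 (rho 0.79), and r = 0.67 without sTX 1 and ctr 3. Probe sets of 1 gene correlated less than that, with r = 0.56 for the pair of Bid, 0.50 for the pair of Mcl1, between -0.14 and 0.17 for the 3 pairs of Bcl2l1 and between -0.42 and 0.16 for the 3 pairs of Bcl2l11. All probe sets of a kidney share its array, RNA and cell makeup.

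**Figure D4:**
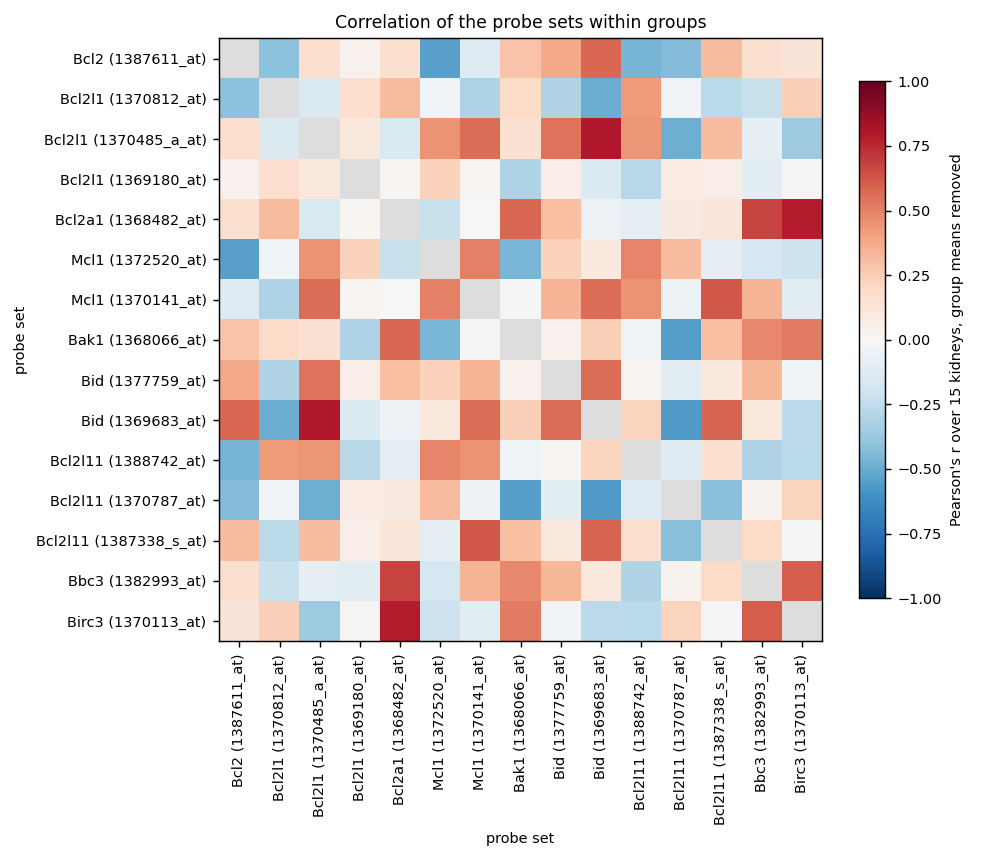
Pearson's r of log2 signals between the 15 member probe sets over 15 kidneys after group means were removed (red positive, blue negative, grey diagonal). All pairs of Bcl2a1, Birc3, Bbc3 and Bak1 are positive, with 0.79 for Bcl2a1 and Birc3.

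The genes whose pattern was most like Bcl2a1 were sought among the 7367 singly named probe sets whose signal averaged 100 or more. Over the 15 kidneys they were Irf1 (r = 0.997), Irgm (0.994), Psmb9 (0.993), Ms4a7 (0.993) and Serpinb1a (0.992), values that include the differences between groups. Irf1, an interferon-induced transcription factor, averaged 2706.2 ± 189 in aTX, 236 ± 106 in sTX and 95.5 ± 46.5 in ctr. With group means removed, the closest were Irf1 (r = 0.94), RT1-CE5 (0.92), Igtp (0.91), Fgr (0.91) and Irgm (0.91), and without sTX 1 and ctr 3 these values were 0.83 for Irf1, 0.75 for RT1-CE5, 0.78 for Igtp, 0.89 for Fgr and 0.68 for Irgm. Irgm and Igtp encode interferon-inducible GTPases, RT1-CE5 is a class I histocompatibility gene and Fgr a kinase of myeloid cells. For Birc3 the closest over the 15 kidneys were Ms4a7 (0.994), Ap1s2 (0.994), Cnp (0.992), Upp1 (0.992) and Serpinb1a (0.992). With group means removed they were Ptprf (0.90), Adprm (0.89), Nup62 (0.89), Adam17 (0.85) and Ms4a7 (0.85), and without sTX 1 and ctr 3 the values were 0.85 for Ptprf, 0.86 for Adprm, 0.80 for Nup62, 0.89 for Adam17 and 0.69 for Ms4a7. Within groups the lists of the 2 genes shared no name. Ptprf averaged 322 ± 40.8 in aTX, 311 ± 24.9 in sTX and 330 ± 43.5 in ctr, so the group means of the 2 genes were unlike.

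The other genes of these pathways were read from lists, each gene on its brightest probe set. Their counts stand beside array shares of 20.2% higher and 22.2% lower in aTX against ctr, 11.4% and 6.32% in sTX against ctr, and 13.9% and 22.1% in aTX against sTX. Of 14 other BCL2 family and BNIP genes, 4 were called higher, 4 lower and 6 not in aTX against ctr, with a median change of -0.12. Bok, a relative of Bax and Bak1, averaged 109 ± 17.7 in aTX and 274 ± 49.9 in ctr and fell by 1.33 (adjusted p = 7.52e-08). Bcl2l12 averaged 107 ± 8.63 in aTX and 44.1 ± 5.79 in ctr, a rise of 1.28 (adjusted p = 1.91e-08). Bnip2 rose by 1.21 (adjusted p = 2.25e-11), and Bnip3, a mitophagy receptor induced by hypoxia, fell by 0.83 (adjusted p = 4.3e-08). Counts of 4 in 14 in each direction lay near the array shares. For sTX against ctr 2 were called higher, 1 lower and 11 not, and for aTX against sTX 3 were higher, 5 lower and 6 not.

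Of 6 other inhibitor of apoptosis genes and their antagonists, 3 were called higher in aTX against ctr and 0 lower, with a median change of 0.82. Birc2, the closest relative of Birc3, averaged 290 ± 16.9 in aTX, 130 ± 9.12 in sTX and 125 ± 19.8 in ctr. It rose by 1.23 in aTX against ctr (adjusted p = 1.42e-09) and by 1.16 in aTX against sTX (adjusted p = 7.04e-09), and its change in sTX against ctr was 0.07 (adjusted p = 0.698). Birc5, which encodes the mitotic protein survivin, rose by 2.26 in aTX (adjusted p = 2.79e-09) and by 1.71 in sTX (adjusted p = 1.66e-06) against ctr. Htra2, a mitochondrial protease that antagonises these inhibitors, rose by 0.41 in aTX against ctr (adjusted p = 0.000255). Of the 6, 1 was called higher in sTX than in ctr, Birc5, and in aTX against sTX 3 were.

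Genes of the apoptosome and of death receptors were mostly higher in the acute group. In aTX against ctr 9 of 11 were called higher, 1 lower and 1 not, with a median change of 1.53. Fas, the receptor whose ligand cytotoxic T cells carry, averaged 133 ± 11.6 in aTX and 13.7 ± 4.24 in ctr, a rise of 3.33 (adjusted p = 7.6e-11). The ligand gene Tnfsf10 (TRAIL) averaged 1021.9 ± 127 in aTX and 105 ± 13.4 in ctr, a rise of 3.29 (adjusted p = 4.5e-13). Casp8, whose protein cuts BID, rose by 2.41 (adjusted p = 1.09e-11), and Apaf1, the scaffold that cytochrome c activates, rose by 2.22 (adjusted p = 6.36e-11). Of the same 11 genes, 7 were called higher and 1 lower in sTX than in ctr, and in aTX against sTX 10 were higher and 0 lower. Casp8 and Apaf1 were also higher in sTX than in ctr, by 0.80 (adjusted p = 0.000242) and 0.68 (adjusted p = 0.00157).

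Of 13 partners of Birc3 in TNF and NF-kappaB signalling, 10 were called higher in aTX against ctr, 0 lower and 3 not, with a median change of 1.16. Traf1, whose protein joins TRAF2 and the cIAPs, averaged 79.1 ± 14.3 in aTX and 5.78 ± 4.15 in ctr, a rise of 4.47 (adjusted p = 1.11e-05) over control signals that ran between 0.3 and 11.1. Tnfaip3, the NF-kappaB inhibitor A20, rose by 2.10 (adjusted p = 3.18e-10), Nfkb2 by 2.03 (adjusted p = 6.94e-11) and Relb by 1.58 (adjusted p = 1.51e-09). In sTX against ctr 4 were called higher and 1 lower, and in aTX against sTX 10 were higher and 0 lower. Of 9 genes of p53 signalling, the pathway that controls Bbc3, 2 were called higher, 4 lower and 3 not in aTX against ctr, with a median change of -0.53. Sesn1 (-1.25, adjusted p = 1.35e-10), Gadd45a (-1.06, adjusted p = 5.02e-07), Perp (2.0-fold lower, adjusted p = 1.33e-08) and Sesn2 (-0.96, adjusted p = 6.42e-06) fell. The 2 called higher were Cdkn1a, which encodes the cell cycle inhibitor p21 (0.91, adjusted p = 0.00516), and Mdm2, whose protein degrades p53 (0.41, adjusted p = 0.00115). In sTX against ctr 0 of the 9 were called higher and 4 lower, and in aTX against sTX 2 were higher and 3 lower.

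**Figure D5:**
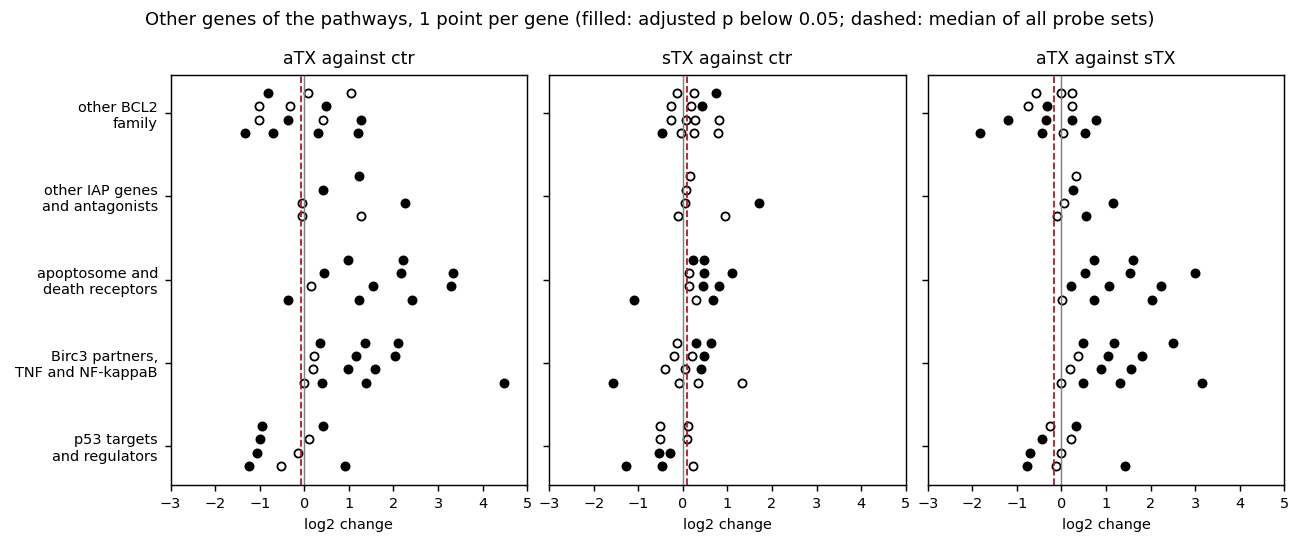
log2 change of the other genes of each list in aTX against ctr, sTX against ctr and aTX against sTX, 1 point per gene, filled where the adjusted p from limma is below 0.05; the dashed line is the median of all probe sets (-0.07, 0.09 and -0.18). In aTX against ctr the death receptor and Birc3 partner genes lie mostly to the right (9 of 11 and 10 of 13 called higher), and the p53 genes mostly to the left (4 of 9 called lower).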

How the data were processed

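Total RNA of 15 whole kidneys was hybridised to 1 array each, and the authors deposited MAS5 signal intensities per probe set; detection calls were not used. On every array their mean after trimming 2% at each side was 100, whereas the study's methods name another target, and they were used as deposited. Signals below 0.05 (54 values of 0 among them) were set to 0.05, taken to log2 and fitted in R 4.3.3 with limma 3.58.1 (intensity trend, all 15 arrays, Benjamini-Hochberg over 31042 probe sets). The number of arrays limits precision. The methods give 5 animals per graft group.

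Gene symbols came from the platform annotation (20826 probe sets with 1 symbol, 436 with several, 9780 unnamed), and 57 control probe sets were left out. The 10 genes, the lists and the tests were chosen with earlier results of these data known. Named beside the members were up to 4 called genes per list with the largest change in aTX against ctr, the 5 genes most correlated with Bcl2a1 and Birc3, and defining markers. From the p53 list the genes called higher were named as well. Bax shared its probe set with another gene, so planned ratios with Bax were not made. The fit was tested on simulated data. Alternatives changed scaling, floor, offset, filter, test, wash run, replicate block and the arrays included.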

Additional observations from a re-analysis of the deposited data

Results flagged for a closer look

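In 2 of 45 groups of 5 kidneys, 1 kidney stood apart from the others by more than Dixon's critical value of 0.71 for the gap over the range, where chance gives about 1 in 20. On the Bid probe set 1377759_at, aTX 1 was the lowest acute graft at 441.1 against 462.6 for the next, a ratio of 0.773, in a group of small spread. On the Bcl2l1 probe set 1369180_at, sTX 4 gave 1.3 against 6.4 for the next syngeneic graft, a ratio of 0.731, on a probe set whose signals all lay under the array medians.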

How the results depend on the processing

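Over 29 settings, 723 of 777 recomputed values of called changes stayed past the threshold and 0 turned round. Part of these settings could not move a change, such as leaving out an array of a group outside the comparison. The total is therefore not a measure of robustness. The 54 losses fell on aTX against ctr (10), sTX against ctr (34) and aTX against sTX (10), and their causes were not tested. Members called lower in sTX against ctr numbered 4 with each array centred on its median (Mcl1, Bid on 1377759_at and Bcl2l11 on 1388742_at), 1 with quantile normalization (Bcl2l11 on 1388742_at, while both Mcl1 calls were lost), 1 with only the groups compared, 0 without trend, 0 without sTX 4 and 5, and 0 to 3 with single arrays left out. Those lower in aTX against sTX numbered 1 after centring, 1 without trend, and 1 to 2 with single arrays left out. With the wash run as a block, sTX against ctr had 0 members higher and 0 lower, and 713 and 255 probe sets of the whole array. After centring the whole array gave 1812 higher and 4724 lower there. The methods' t-test after adjustment called 2 members higher and 0 lower in sTX against ctr, beside 2529 and 1429 probe sets of the whole array. At its unadjusted threshold it called 0 members lower in aTX against ctr and 0 in aTX against sTX, and 0 in either direction in sTX against ctr. The whole array then gave 3894 higher and 3808 lower in aTX against ctr, 1329 and 716 in sTX against ctr, and 2838 and 3447 in aTX against sTX. None of 15 pairs of equal replicate number correlated above 0.1 over all probe sets with group means removed. A low correlation cannot tell whether kidneys share a donor, and pairing by donor was not tested. The replicate block gave 1 member lower in sTX against ctr.

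The changes that turned sign were not called in the fit reported. In sTX against ctr Bid (1369683_at) was -0.15 after centring, -0.11 after quantile normalization, -0.21 without sTX 1 and ctr 3 (a setting chosen after seeing the data), and -0.11 to 0.25 with single arrays left out. Bcl2l1 was -0.0016 on 1370812_at after centring. On 1369180_at it was 0.12 without sTX 4 and 5, and -0.59 to 0.19 with single arrays left out. Bcl2l11 on 1370787_at was 0.11 with the wash run block, 0.063 without sTX 4 and 5, and -0.13 to 0.027 with single arrays left out. On 1387338_s_at it was -0.72 with the wash run block, -0.00717 without sTX 1 and ctr 3, and -0.016 to 0.70 with single arrays left out. In aTX against sTX Bcl2l11 was 0.0065 on 1370787_at after quantile normalization and -0.087 to 0.89 on 1387338_s_at with single arrays left out. These probe sets, Bid and 1370812_at apart, lay near or under the array medians.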

Other observations

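Among the list genes, Cflar and Nfkbia, chosen after their values were seen, were lowest in the syngeneic grafts. Cflar encodes c-FLIP, which blocks caspase-8 at death receptors. It lay between 115.4 and 148.6 in aTX, between 80.4 and 84.0 in sTX and between 153.2 and 202.3 in ctr, and the groups did not overlap. It fell by 1.10 in sTX against ctr (adjusted p = 2.99e-08) and by 0.37 in aTX against ctr (adjusted p = 0.00134). Nfkbia encodes the NF-kappaB inhibitor IkappaB-alpha, itself a target of NF-kappaB. It lay between 673.4 and 748.7 in aTX, between 178.3 and 236.4 in sTX and between 483.6 and 714.3 in ctr, so only sTX stood apart. It fell by 1.58 in sTX against ctr (adjusted p = 8.27e-10), and its change in aTX against ctr was 0.22 (adjusted p = 0.0561). No sTX array shares a wash run with a ctr array, and the part of the run in these differences was not tested.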
